A study of Rattus norvegicus with 16 samples.

Results

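The adrenal glands of rats given 100 µg of benzalkonium chloride (BKC) per instillation were compared with those of rats given 50 µg. Benzalkonium chloride is a quaternary ammonium disinfectant and preservative. The comparison used 4 of the 16 RNA-seq samples of the study, 2 libraries at each dose, chosen by the tissue and dose in their labels. The other samples were 2 adrenal vehicle libraries, whose values are given beside many but not all of the results, and heart and pancreas libraries.

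All rats were wild-type male Sprague-Dawley animals. Vehicle or BKC was put into the trachea 10 times, once every 3 days from 7 weeks of age, and tissue was taken on day 31, 24 h after the last instillation. Both adrenal glands of an animal were pooled, so cortex, medulla, capsule and any fat left on the gland were in each library. Libraries were prepared with a stranded mRNA kit. The vehicle solution is not described in the labels, and the 100 µg groups shared their schedule, sex and age with the 50 µg groups.

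Dose changed together with a second difference between the libraries. The 2 adrenal vehicle and the 2 adrenal 50 µg libraries carry names of one style (V-, B-), and the 2 adrenal 100 µg libraries carry names of another (B100-, as in the VEH- and B50- names of some heart libraries). The labels do not say what the naming style stands for. Within the adrenal gland dose and naming style cannot be told apart. In the heart, both styles occur at vehicle and again at 50 µg, with 1 library of each style per dose, so the difference between styles at an unchanged dose was measured there and is given beside the adrenal results. The deposited column for heart 100 µg replicate 2 held the same value as adrenal 100 µg replicate 2 in 45777 of 45777 genes. In that column the genes of steroid synthesis stood as high as in the other adrenal libraries, and it was used only as an adrenal library.

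The adrenal cortex makes corticosteroids from cholesterol under the control of ACTH and angiotensin, and the medulla makes catecholamines. Metallothioneins are small cysteine-rich proteins that bind zinc and copper. In mammals their genes are switched on by metals through the transcription factor MTF1, which binds metal response elements in their promoters, and by glucocorticoids.

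Values are FPKM (fragment counts corrected for transcript length and library size) scaled between libraries by median ratios. Changes are differences of log2(scaled FPKM + 1), 100 µg minus 50 µg, from a limma fit over the 6 adrenal libraries, so they understate the change of low genes. A mean of 1 FPKM over the adrenal libraries was required for testing. Of 12578 such genes, 37 passed an adjusted p of 0.05, which is 0.294% of those tested. Of these, 18 were higher at 100 µg (0.143%) and 19 were lower (0.151%). In all 37 the 2 libraries of one dose lay beyond both of the other. That held on the higher side for 26.8% and on the lower side for 25.3% of all genes tested. The limma test itself favours such genes, so the separation of the 37 is not separate evidence. At an unadjusted p below 0.05 there were 2364 genes, or 18.8% of those tested (9.99% higher and 8.81% lower at 100 µg). The median change over all genes was 0.01.

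The count moved with the libraries and the scaling. Without 100 µg replicate 2 there were 375 calls, which included all 37. Without 100 µg replicate 1 there were 19, without 50 µg replicate 1 there were 7, without 50 µg replicate 2 there were 6, and without either vehicle library there were 5. On FPKM as deposited, 78 genes were higher and 294 lower, and the median over all genes moved to -0.16. With protein-coding genes rescaled to equal sums, 65 were higher and 32 lower. All 37 genes kept their direction under every setting that gave them a value. Mt1 and the small nucleolar RNA Snora74a passed without each of the 6 adrenal libraries in turn, and every other called gene lost its call without at least 1 of them. The labels name no animal for a library, so these p-values measure the spread between these libraries.

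By class of RNA, 14 of the 19 genes that fell and 3 of the 18 that rose were protein coding, as were 11427 of the 12578 genes tested. Among small nucleolar RNAs 9 of 316 tested rose and 1 fell, and among pseudogenes 3 of 287 rose. In 18 of the 19 genes that fell, both 100 µg libraries lay below all 4 vehicle and 50 µg libraries, as in 15.9% of all genes tested. In 17 of the 18 that rose, both lay above all 4, as in 16.6% of all genes. The vehicle libraries have the naming style of the 50 µg libraries.

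Of the protein-coding genes, the largest fall was in metallothionein Mt2A. Mt2A stood at 218 and 264 FPKM in the 50 µg libraries and at 23.4 and 17.5 FPKM in the 100 µg libraries, with vehicle at 256 and 146. The vehicle and 50 µg libraries covered one range and both 100 µg libraries lay far below it. The gene fell by 3.51 on the log2 scale (SE 0.29), an 11.4-fold difference with a limma adjusted p of 0.0122. Without 50 µg replicate 1 the adjusted p was 0.0501, and without 50 µg replicate 2 it was 0.0728. Mt1, its neighbour and close relative, stood at 221 and 230 FPKM at 50 µg and at 28.0 and 39.8 FPKM at 100 µg, with vehicle at 155 and 137. Again both 100 µg libraries lay below all others, and Mt1 fell by 2.72 (SE 0.21, adjusted p = 0.00736). The genes are similar in sequence, and how the authors' processing divided shared fragments between them is not given in the sources used here.

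In the heart both metallothionein genes are low, and their differences between naming styles were smaller than the adrenal falls. On the log2(scaled FPKM + 1) scale, heart Mt2A is too low to fall by as much as in the adrenal gland. Its heart values therefore cannot show whether naming style lowers it by that much. Heart Mt2A differed between styles by -0.02 at vehicle and 0.15 at 50 µg, on a level of 2.97 FPKM in the first-style vehicle library. Heart Mt1 differed by -0.36 and -0.45, on a level of 8.89 FPKM in the same library.

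Of the 10 tested genes on a list of metallothioneins and zinc handling genes, Mt1 and Mt2A fell and none rose. The list's median change was 0.06, against 0.01 over all genes, and it turned to -0.12 on FPKM as deposited. Without single libraries of either dose it ran from 0.03 to 0.15. Mtf1, the metal-responsive transcription factor, was at 2.53 and 2.05 FPKM at 50 µg and 3.02 and 2.56 FPKM at 100 µg, a change of 0.20 (adjusted p = 0.68). The zinc exporter Slc30a1 was at 5.93 and 4.69 FPKM at 50 µg and 4.41 and 5.26 FPKM at 100 µg, a change of -0.11 (adjusted p = 0.821).

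The promoters of both metallothionein genes are shown because these genes had the largest falls among protein-coding genes and carry repeated metal response elements. The sequences are the 250 bases before the annotated start in RefSeq, build GRCr8, on the minus strand, at chr19:10832976-10833225 for Mt1 and chr19:10838709-10838958 for Mt2A. Capitals mark the core of the metal response element, searched as TGCACNC or TGCGCNC on both strands, where N is any base.
Mt1: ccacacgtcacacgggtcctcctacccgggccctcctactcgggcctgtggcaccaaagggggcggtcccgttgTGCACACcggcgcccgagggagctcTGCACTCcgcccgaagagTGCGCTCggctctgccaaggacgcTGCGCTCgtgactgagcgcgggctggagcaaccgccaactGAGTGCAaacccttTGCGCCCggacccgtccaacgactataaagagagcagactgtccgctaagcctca
Mt2A: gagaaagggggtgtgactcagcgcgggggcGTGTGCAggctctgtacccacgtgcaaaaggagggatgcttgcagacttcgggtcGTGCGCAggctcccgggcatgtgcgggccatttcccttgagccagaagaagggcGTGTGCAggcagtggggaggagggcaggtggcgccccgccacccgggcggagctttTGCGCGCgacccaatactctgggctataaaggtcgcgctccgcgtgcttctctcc

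The Mt1 window held 6 matches and the Mt2A window held 4, none of them overlapping. In both, the match nearest to the start ran from position -55 to -49. Of 33469 promoter windows of the same length, 20.6% held at least 1 match, 0.128% held at least 4, and 0.0239% held at least 6. Among 18 tested genes with at least 4 matches, Mt1 and Mt2A were the ones called, and the median change of the 18 was 0.03. A promoter was found for 12 of the 17 called protein-coding genes. Besides the metallothioneins, Gstk1 and Luc7l2 had 1 match each, and the other 8 had none.

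Metallothioneins are also on a list of genes induced by glucocorticoids, with 22 tested members. Mt1 and Mt2A were its called members. The list's median was -0.09, and it was -0.40 without 100 µg replicate 1, -0.15 without 50 µg replicate 1 and 0.16 without 100 µg replicate 2. Fkbp5, a co-chaperone of the glucocorticoid receptor, was at 12.6 and 11.9 FPKM at 50 µg and 14.1 and 9.67 FPKM at 100 µg (change -0.06, adjusted p = 0.918). Tsc22d3, which encodes the leucine zipper protein GILZ, was at 82.4 and 78.6 FPKM against 59.3 and 58.4 FPKM (change -0.45, adjusted p = 0.222). The Fkbp5 values of the doses overlapped, and those of Tsc22d3 did not.

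**Figure D1:**
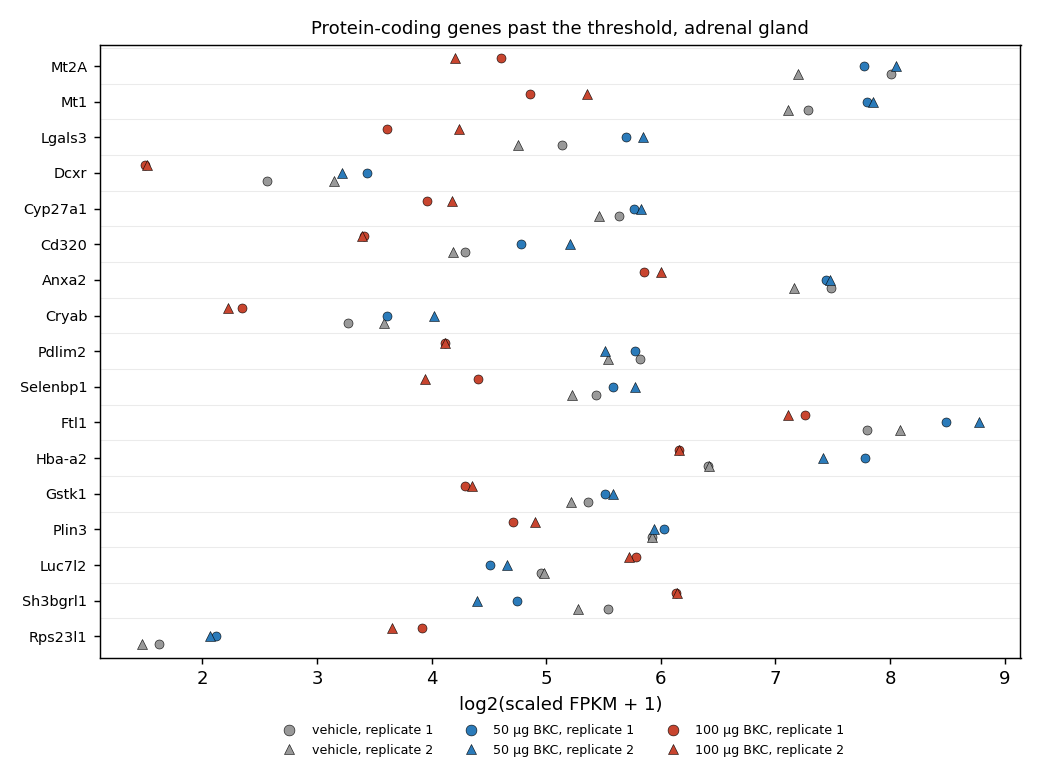
Each row is one of the 17 protein-coding genes past an adjusted p of 0.05, and each point is one adrenal library on the log2(scaled FPKM + 1) axis, with colour for the group and shape for the replicate. In the 14 genes that fell, both 100 µg points lie left of all other points, with Mt2A and Mt1 farthest.

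Cyp27a1 and Plin3 fell by less than the metallothioneins. Cyp27a1, the mitochondrial enzyme that adds a hydroxyl group to the side chain of cholesterol, was at 53.3 and 55.8 FPKM at 50 µg and at 14.5 and 17.1 FPKM at 100 µg, with vehicle at 48.5 and 42.9. Its 100 µg libraries were low and close to each other, and it fell by 1.73 (SE 0.17, limma adjusted p = 0.0193). Plin3, a coat protein of lipid droplets, was at 64.0 and 60.4 FPKM at 50 µg and at 25.1 and 28.9 FPKM at 100 µg, with both vehicle libraries near the 50 µg level. Its change was -1.18 (adjusted p = 0.0411). In the heart, the second naming style was below the first by -0.89 at vehicle and -0.31 at 50 µg for Plin3, and the Cyp27a1 differences were -0.22 and 0.04.

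The enzyme genes Dcxr, Selenbp1 and Gstk1 fell as well. Dcxr, a dicarbonyl and xylulose reductase, was at 9.81 and 8.28 FPKM at 50 µg and at 1.83 and 1.86 FPKM at 100 µg, with vehicle at 4.89 and 7.85. The 100 µg libraries were almost equal, and the change was -1.82 (SE 0.25, adjusted p = 0.0374). Selenbp1, a selenium-binding protein that oxidises methanethiol, was at 46.9 and 53.9 FPKM at 50 µg and at 20.1 and 14.4 FPKM at 100 µg, with vehicle at 42.3 and 36.4 (change -1.51, adjusted p = 0.0374). Gstk1, a glutathione transferase of mitochondria and peroxisomes, was at 44.6 and 47.0 FPKM against 18.6 and 19.5 FPKM (change -1.22, adjusted p = 0.0353). All had lower values in the second naming style in both heart pairs, by -0.40 and -0.39 for Dcxr, -0.43 and -0.26 for Selenbp1, and -0.70 and -0.41 for Gstk1. Gstk1 and Plin3 fell outside the rule for named genes and are named here after their values were seen.

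Ftl1 and Hba-a2 fell. Ftl1, the ferritin light chain that forms part of the iron storage shell, was at 358 and 437 FPKM at 50 µg and at 152 and 137 FPKM at 100 µg, with vehicle between them at 221 and 271. Its change was -1.45 (SE 0.20, adjusted p = 0.0374), and its heart differences between naming styles were -0.43 at vehicle and -0.32 at 50 µg. Fth1, the heavy chain of the same shell, had a change of 0.03 (adjusted p = 0.949). Hba-a2, a haemoglobin alpha chain gene, was at 219 and 169 FPKM at 50 µg, 70.3 and 70.2 FPKM at 100 µg, and 84.1 and 84.8 FPKM in vehicle. The 50 µg libraries stood above both other groups, and the change between doses was -1.44 (SE 0.19, adjusted p = 0.0326).

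The haemoglobin alpha copies share near-identical sequence, so the division of reads among them is uncertain. Hba-a1 was at 319 and 215 FPKM at 50 µg and 112 FPKM in both 100 µg libraries, with vehicle at 107 and 104 (change -1.22, adjusted p = 0.0603), and it passed on FPKM as deposited (adjusted p = 0.0049). Of 9 tested genes on an erythroid list of 17, Hba-a2 was called, none had a positive change, and the median was -0.89 under this scaling and negative under each other scaling. The summed level of all 17 erythroid genes was 663 and 516 FPKM in vehicle, 1121 and 843 FPKM at 50 µg and 473 and 465 FPKM at 100 µg. The part of red cells in the glands in these values was not tested. In bulk tissue, fewer cells of a type and less RNA per cell cannot be told apart. Heart Hba-a2 differed between naming styles by 0.16 at vehicle and -1.57 at 50 µg, so the heart pairs did not share a direction.

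Anxa2, Lgals3, Pdlim2 and Cd320 fell too. Anxa2, a calcium-dependent membrane-binding annexin, was at 173 and 177 FPKM at 50 µg and at 56.9 and 63.1 FPKM at 100 µg, with vehicle at 178 and 142 (change -1.53, SE 0.19, adjusted p = 0.0319). Lgals3, the sugar-binding lectin galectin-3, was at 50.9 and 56.6 FPKM against 11.2 and 17.9 FPKM, with vehicle in between at 34.2 and 26.0 (change -1.85, SE 0.25, adjusted p = 0.0344). Pdlim2, a PDZ and LIM domain protein, was at 53.8 and 44.7 FPKM against 16.3 FPKM in both 100 µg libraries, with vehicle at 55.6 and 45.6 (change -1.53, adjusted p = 0.0319). In none of them did the 2 doses overlap. Cd320, the receptor that takes up vitamin B12 bound to transcobalamin, was at 26.4 and 35.9 FPKM against 9.62 and 9.49 FPKM, with vehicle at 18.6 and 17.2 (change -1.59, adjusted p = 0.0319). The heart differences between styles were -0.33 and 0.08 for Lgals3, -0.34 and -0.18 for Anxa2, 0.06 and 0.02 for Pdlim2, and -0.23 and -0.25 for Cd320.

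Lgals3 is strongly expressed by macrophages, and a macrophage marker list was measured beside it. Of 14 tested markers none was called, 9 had negative changes, and the median was -0.40, negative under each scaling. It was -0.25 without 100 µg replicate 2 and -0.26 without 50 µg replicate 2. Both 100 µg libraries lay below both 50 µg libraries in 57.1% of the list, against 25.3% of all genes. Tyrobp, an adaptor of myeloid receptors, was at 17.6 and 19.8 FPKM at 50 µg and 10.0 and 9.61 FPKM at 100 µg (change -0.86, adjusted p = 0.0746). Cd163, a scavenger receptor of tissue macrophages, was at 2.47 and 3.39 FPKM against 2.56 and 3.89 FPKM (change 0.10, adjusted p = 0.888). The summed macrophage level ran from 300 to 435 FPKM at 50 µg and from 309 to 313 FPKM at 100 µg. The part of macrophages in the Lgals3 result was not tested.

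Cryab, a small heat shock chaperone, was the called member of a heat shock list of 23 tested genes. It was at 11.2 and 15.2 FPKM at 50 µg and at 4.09 and 3.67 FPKM at 100 µg, with vehicle at 8.64 and 11.0 (change -1.53, SE 0.22, adjusted p = 0.0447). Its call was lost under quantile normalization, as were the calls of Ftl1, Plin3 and Luc7l2. The heart differences of Cryab between naming styles were -0.35 and -0.26. Most other members had changes of the opposite sign. The list's median was 0.35, positive under each scaling, and 16 of 23 changes were positive. It was 0.21 without 50 µg replicate 2, 0.23 without 100 µg replicate 1 and 0.15 on FPKM as deposited. Hspa1b, an inducible Hsp70, was at 8.95 and 5.34 FPKM at 50 µg and 41.4 and 12.5 FPKM at 100 µg (change 1.59, SE 0.57, adjusted p = 0.237), with the 100 µg libraries far from each other. The co-chaperone gene Dnajb4 was at 12.2 and 14.5 FPKM against 32.5 and 24.4 FPKM (change 1.02, adjusted p = 0.0689), and its heart differences between styles were 0.99 and 1.12.

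Ftl1 was also the called member of a list of 28 tested NRF2 targets and antioxidant genes. The list's median was -0.27, negative under each scaling and -0.41 without 100 µg replicate 1, and 17 of its 28 changes were negative. Both 100 µg libraries lay below both 50 µg libraries in 50% of the list, against 25.3% of all genes. They lay above both in 17.9%, against 26.8% of all genes. Gstm2, a glutathione transferase, was at 11.4 and 13.7 FPKM at 50 µg and at 3.33 and 4.69 FPKM at 100 µg, and missed the threshold with a change of -1.44 (SE 0.22, adjusted p = 0.0529). The other canonical NRF2 targets named here lay on both sides. Nqo1 had a change of -0.58 (adjusted p = 0.254), Gclm 0.03 (adjusted p = 0.944) and Txnrd1 0.37 (adjusted p = 0.308).

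The 3 protein-coding genes that rose had differences of the same sign between naming styles in the heart. Rps23l1, whose symbol marks it as a copy like ribosomal protein S23, was at 3.34 and 3.19 FPKM at 50 µg and at 14.1 and 11.6 FPKM at 100 µg, with vehicle at 2.08 and 1.77. Its change was 1.69 (SE 0.22, adjusted p = 0.0326), and its heart style differences were 1.29 and 1.65. Reads of such a copy can come from its parent gene, so its level is uncertain. Luc7l2, a component of the U1 splicing complex, was at 21.7 and 24.2 FPKM against 54.1 and 51.8 FPKM, with vehicle at 30.0 and 30.6 (change 1.17, SE 0.16, adjusted p = 0.0374), and its heart differences were 1.00 and 0.94. Sh3bgrl1 was at 25.7 and 20.0 FPKM against 69.3 and 69.7 FPKM, with vehicle at 45.5 and 37.7 (change 1.57, SE 0.19, adjusted p = 0.0319), and its heart differences were 0.93 and 1.11. In Luc7l2 and Sh3bgrl1 the 50 µg libraries lay below vehicle and the 100 µg libraries above it.

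Small non-coding RNAs had the largest rises. Small nucleolar RNAs guide chemical changes of ribosomal RNA, Cajal body RNAs guide those of spliceosomal RNA, and most lie inside introns of longer host genes. Snord97 was at 17.4 and 18.6 FPKM at 50 µg and at 569 and 337 FPKM at 100 µg, with vehicle at 14.4 and 6.45. It rose by 4.53 (SE 0.39, limma adjusted p = 0.0199), a 23.1-fold difference on the log2(FPKM + 1) scale. Without 50 µg replicate 1 its adjusted p was 0.121, and without 50 µg replicate 2 it was 0.131. Its annotated host gene Eif4g2, a translation initiation factor, had a change of 0.41 (adjusted p = 0.327). In the heart, Snord97 was higher in the second naming style by 2.75 at vehicle and by 4.28 at 50 µg.

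Scarna18 and Scarna17, both annotated within one long non-coding RNA gene, LOC120098116, rose too. Scarna18 was at 0.868 and 3.08 FPKM at 50 µg and at 37.1 and 30.2 FPKM at 100 µg, with vehicle at 0.558 and 1.57 (change 3.64, SE 0.41, adjusted p = 0.0324). Scarna17 was at 0.166 and 0.359 FPKM against 4.99 and 5.65 FPKM, with vehicle at 0.514 and 0.937 (change 2.33, SE 0.25, adjusted p = 0.0199). In both RNAs the 100 µg libraries stood above all 4 other adrenal libraries. Scarna17 reached the mean of 1 FPKM needed for testing only through its 100 µg libraries. Scarna18 lost its call with 0.1 in place of 1 added before the log2. The host missed the threshold with a change of 1.57 (SE 0.25, adjusted p = 0.0538). Heart differences between styles were 3.11 and 2.78 for Scarna18, 1.13 and 1.48 for Scarna17, and 2.03 and 1.49 for the host.

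Several small RNAs with placeholder symbols rose as well, and 3 of them are named here after their values were seen. LOC120093479, inside Gtf2a1, rose by 4.74 (adjusted p = 0.0324) while its host had a change of 0.41 (adjusted p = 0.299). It was at 2.02 and 0.083 FPKM in vehicle, 0.317 and 0.818 FPKM at 50 µg, and 48.7 and 33.5 FPKM at 100 µg. LOC120095776, inside Fbxo45, rose by 3.84 (adjusted p = 0.0139) while its host had a change of 0.21 (adjusted p = 0.668). It was at 0.608 and 0.483 FPKM in vehicle, 1.59 and 0.246 FPKM at 50 µg, and 22.5 and 27.1 FPKM at 100 µg. Their heart style differences were 4.04 and 4.98, and 4.32 and 5.02. LOC120094549, a spliceosomal RNA copy with no annotated host, rose by 2.53 (adjusted p = 0.0165), with heart style differences of 0.39 and 2.60. H2az1-ps1, a pseudogene of the histone H2A.Z gene and therefore of uncertain read origin, was at 0.830 and 1.15 FPKM at 50 µg and at 6.20 and 5.69 FPKM at 100 µg (change 1.81, adjusted p = 0.0326). Its heart differences were 1.63 and 1.66. LOC120093479, LOC120095776, LOC120094549 and H2az1-ps1 reached the mean of 1 FPKM needed for testing only through their 100 µg libraries. With 0.1 in place of 1 added before the log2, LOC120093479, LOC120095776 and H2az1-ps1 lost their calls.

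Snora74a went the other way. This H/ACA box RNA was at 376 and 391 FPKM at 50 µg and at 83.6 and 74.6 FPKM at 100 µg, with vehicle at 264 and 257. It fell by 2.26 (SE 0.17, adjusted p = 0.00736), and its host Matr3 had a change of 0.37 (adjusted p = 0.414). Its sign in the heart was opposite, with the second naming style higher by 0.75 and 1.46. Scarna6l was at 86.0 and 69.0 FPKM against 26.3 and 21.1 FPKM, with vehicle at 51.9 and 42.5, and fell by 1.67 (SE 0.21, adjusted p = 0.0319). Its host Atg16l1 had a change of 0.10 (adjusted p = 0.876), and its heart style differences were 0.44 and 1.16, again of opposite sign. The remaining non-coding falls, named after their values were seen, were the spliceosomal RNA copies LOC120093942 (change -2.33) and LOC120098443 (change -2.07) and the long non-coding RNA LOC102551263 (change -1.47). LOC120093942 was at 0.679 and 0.814 FPKM in vehicle, 7.57 and 4.97 FPKM at 50 µg, and 0.586 and 0.273 FPKM at 100 µg. LOC120098443 was at 0.624 and 1.26 FPKM, 7.41 and 4.90 FPKM, and 0.498 and 0.880 FPKM. In both copies the 50 µg libraries stood above both other groups, which were near the floor.

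**Figure D2:**
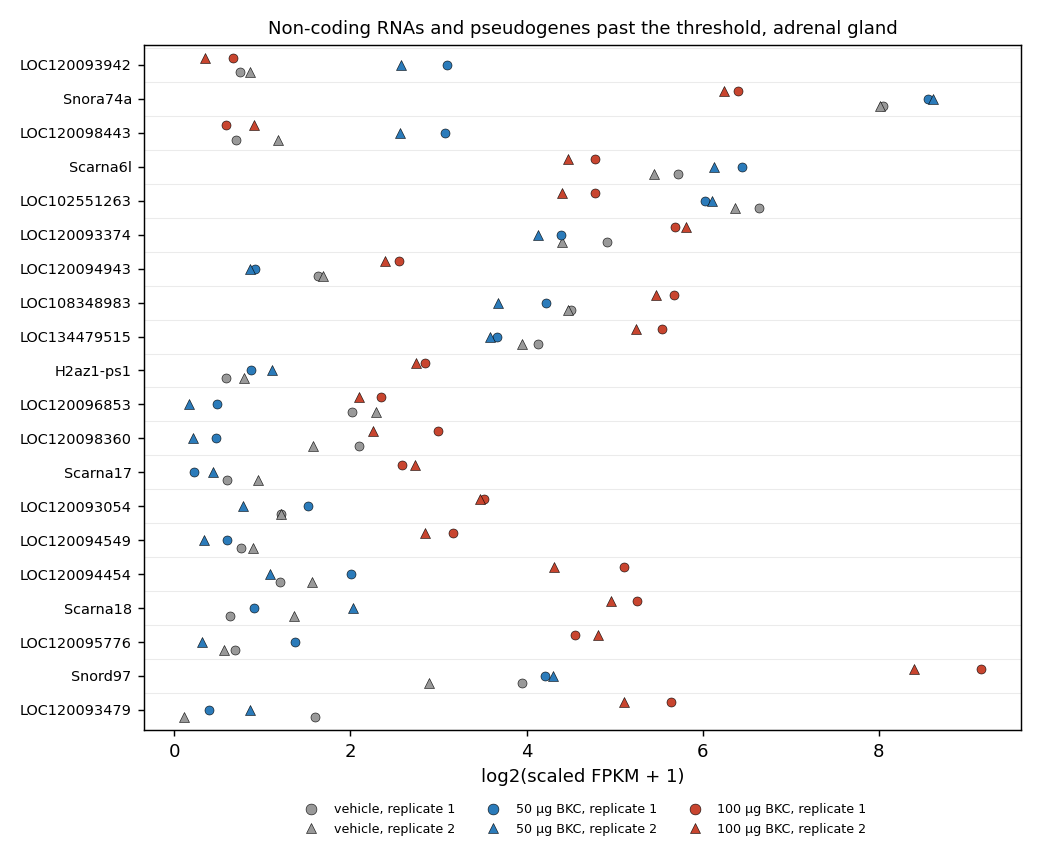
Each row is a non-coding RNA or pseudogene past an adjusted p of 0.05, and each point is one adrenal library on the log2(scaled FPKM + 1) axis. Snord97 rises from 17.4 and 18.6 FPKM to 569 and 337 FPKM, and Snora74a stands lower in both 100 µg libraries than in the other 4.

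Across 405 tested small nuclear, nucleolar and Cajal body RNAs, 12 rose and 4 fell, the median change was 0.58, and 302 changes were positive. The median was positive under each scaling, 0.32 without 100 µg replicate 1 and 0.86 without 100 µg replicate 2. The direction went with annotated length. Of 191 such RNAs under 100 bases, 165 had positive changes with a median of 0.93. Of 153 from 100 bases to below 150, 117 had positive changes with a median of 0.57. Of 61 with 150 bases or more, 20 had positive changes with a median of -0.55. In 45.9% of the 61 both 100 µg libraries lay below both 50 µg libraries, against 25.3% of all genes. In the shorter classes they lay above both in 61.8% and 44.4%, against 26.8% of all genes. The longest class held 4 called falls and 1 called rise, that of Snord97, which is annotated at 188 bases. In the heart the median difference between naming styles was positive in all 3 length classes, at 0.54, 0.76 and 1.13. These RNAs are not polyadenylated in the usual way, were measured with an mRNA kit, and are shorter than or near the size of a sequenced fragment, where FPKM depends on the length correction.

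Abundant structural RNAs took unequal shares of the libraries. Rn7sl1, the RNA of the signal recognition particle, held 27.0% and 33.0% of summed FPKM in vehicle, 35.9% and 30.7% at 50 µg, and 10.3% and 9.50% at 100 µg. Its change was -2.64 (SE 0.40, adjusted p = 0.0529), it passed on FPKM as deposited (adjusted p = 0.000354) and without 100 µg replicate 2 (adjusted p = 0.0345), and it was 0 under quantile normalization, which gives equal values to the top-ranked RNAs. Rpph1, the RNA of RNase P, held 12.5% and 8.69% in vehicle, 26.0% and 10.1% at 50 µg, and 3.75% and 3.82% at 100 µg, a change of -2.99 (SE 0.66, adjusted p = 0.103). Without 50 µg replicate 2 Rpph1 passed with an adjusted p of 0.0308. Protein-coding genes held 36.3% and 57.0% at 50 µg and 80.7% and 81.3% at 100 µg. Summed FPKM was 1004889 and 710106 at 50 µg and 399629 and 391123 at 100 µg. In the heart, the second naming style had lower Rn7sl1, by -0.77 at vehicle and -0.22 at 50 µg. The part of these shares in the calls was not tested beyond the scalings above.

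**Figure D3:**
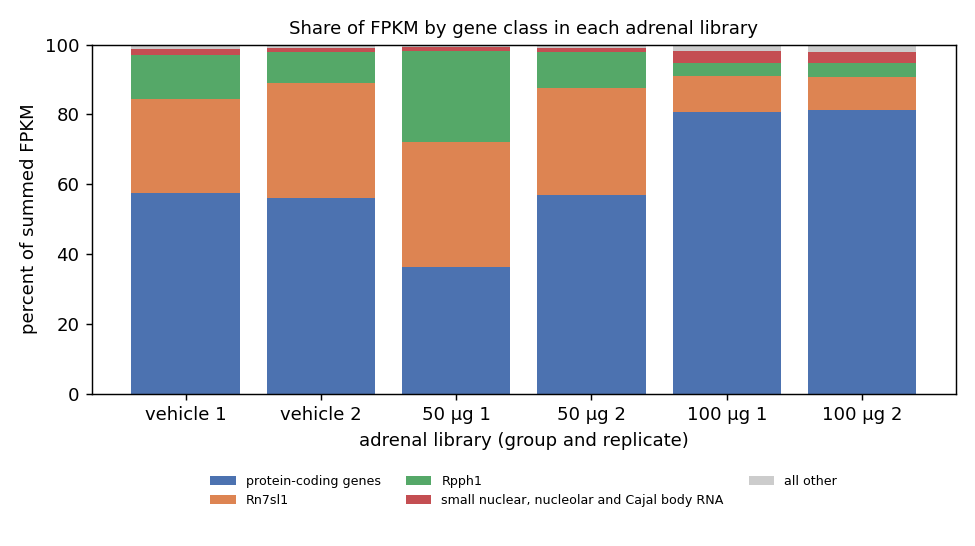
Stacked bars give the percent of summed FPKM by gene class in each of the 6 adrenal libraries. Protein-coding genes hold 80.7% and 81.3% in the 100 µg libraries and between 36.3% and 57.4% in the other 4, where Rn7sl1 and Rpph1 hold most of the rest.

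The called genes were set beside the heart difference between naming styles, which shares no library with the adrenal comparison. Of the 18 genes that rose, 13 were measured in the heart, all 13 were higher in the second style in both pairs, and 10 were at least 2-fold higher in both. Over 10677 genes measured in both tissues, 40.2% were higher in both pairs and 0.983% at least 2-fold. Of the 19 that fell, 16 were measured, 9 were lower in the second style in both pairs, 3 were higher and none was 2-fold lower. Over the same genes, 40.1% were lower in both and 0.281% at least 2-fold. All 14 protein-coding falls were measured, and 9 were lower in both pairs. Across the 10677 genes the adrenal change and the mean heart style difference had a Pearson r of 0.454 and a Spearman rho of 0.455. This is a description across genes, which are not independent and share library composition, with 1 library on each side of a heart pair.

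**Figure D4:**
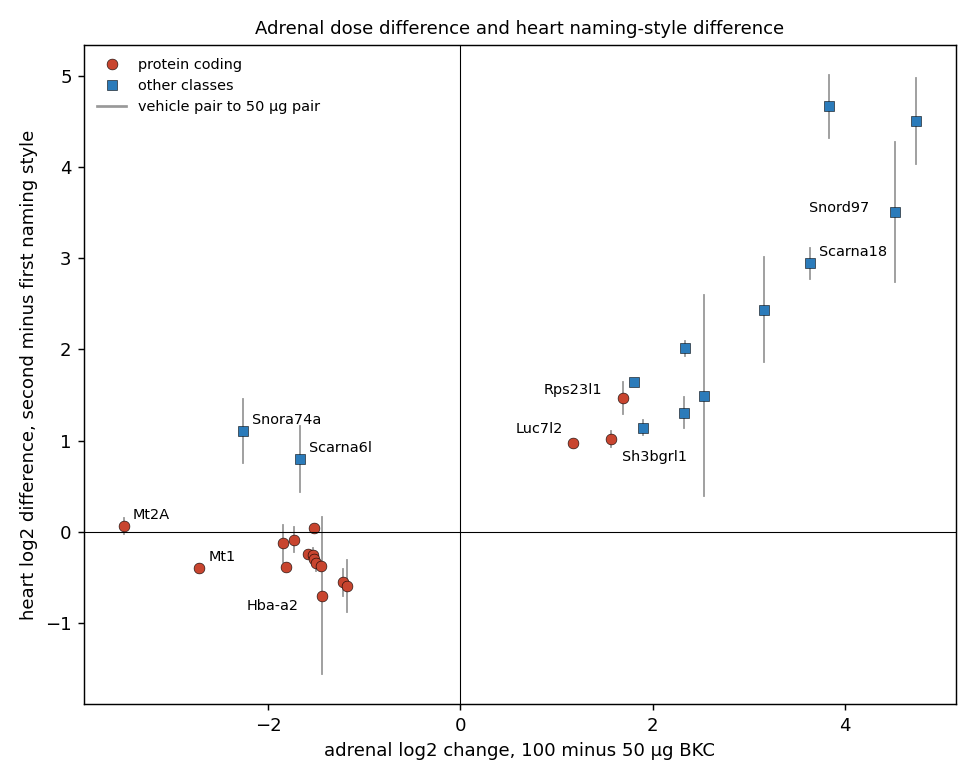
Each point is a called gene measured in the heart, with its adrenal log2 change on the horizontal axis and its heart log2 difference between naming styles on the vertical axis (mean of the vehicle and 50 µg pairs, joined by the line). All 13 rising genes lie above 0 in the heart, and several were measured there only through the second-style libraries. Mt2A and Mt1 combine large adrenal falls with heart differences between -0.45 and 0.15, at low heart levels from which Mt2A could not fall by as much.

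Genes of steroid synthesis checked the tissue and gave no call. All 6 adrenal libraries had them at high level, and a kidney marker list had 0 of 10 members at a testable level. Of other tissues' markers, 3 of 10 for liver, 2 of 10 for pancreas and 1 of 12 for heart muscle were tested, with no call. The summed pancreas list was at 19.9 and 15.6 FPKM in vehicle, 15.8 and 19.5 FPKM at 50 µg, and 33.3 and 25.8 FPKM at 100 µg. Star, which carries cholesterol into mitochondria, was at 8649.5 and 6364 FPKM at 50 µg and at 10922 and 6652 FPKM at 100 µg, with vehicle at 2096 and 4263. The doses overlapped and the change was 0.20 (SE 0.40, adjusted p = 0.825). Cyp11a1, the side-chain cleavage enzyme, had a change of 0.18 (adjusted p = 0.795), Cyp11b1, which makes corticosterone, one of 0.31 (adjusted p = 0.673), and the aldosterone synthase Cyp11b2 one of -0.47 (adjusted p = 0.577). Cyp11b2 was at 95.9 FPKM in 100 µg replicate 1 and 236 FPKM in replicate 2, and without replicate 2 it passed with an adjusted p of 0.0463. The ACTH receptor gene Mc2r had a change of 0.16 (adjusted p = 0.756).

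Of 22 tested steroid synthesis genes none was called, and the median change was 0.10, which turned to -0.10 on FPKM as deposited and to -0.21 without 50 µg replicate 2. It was 0.27 without 50 µg replicate 1 and 0.17 without 100 µg replicate 2. Members nearest to the threshold were lower at 100 µg. Hsd11b1, which regenerates active glucocorticoid, was at 15.2 and 15.5 FPKM at 50 µg and 6.42 and 7.26 FPKM at 100 µg, with vehicle at 12.6 and 12.5 (change -1.06, SE 0.17, adjusted p = 0.0555). Its heart style differences were 0.12 and 0.11. Tspo, a cholesterol-binding protein of the outer mitochondrial membrane, had a change of -1.07 (adjusted p = 0.0825), with heart differences of -1.18 and -0.89. Scarb1, the receptor that takes up cholesterol esters from HDL, was at 798 and 390 FPKM against 1850 and 1125 FPKM, with vehicle at 238 and 431 (change 1.37, SE 0.46, adjusted p = 0.200).

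Cholesterol synthesis and uptake genes had no call among 23 tested. Their median change was 0.51, positive under each scaling but moved by single libraries to 0.17 without 50 µg replicate 2, 0.20 without 100 µg replicate 2 and 0.78 without 50 µg replicate 1. In the full fit 16 changes were positive, and in 39.1% both 100 µg libraries lay above both 50 µg libraries, against 26.8% of all genes. Hmgcs1, which makes HMG-CoA, was at 99.1 and 47.9 FPKM at 50 µg and at 143 and 159 FPKM at 100 µg, with vehicle at 36.4 and 38.0 (change 1.12, SE 0.32, adjusted p = 0.142). Idi1, the isopentenyl diphosphate isomerase, was at 58.8 and 30.0 FPKM against 144 and 90.0 FPKM, with vehicle at 25.3 in both (change 1.41, adjusted p = 0.115). In both genes the 50 µg libraries differed strongly from each other and the 100 µg libraries were higher than either. Heart style differences were -0.44 and -0.52 for Hmgcs1 and -0.09 and -0.06 for Idi1.

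Fatty acid oxidation genes and PPAR targets also had no call among 25 tested. Their median change was 0.39, positive under each scaling, and 22 of 25 changes were positive. In 56.0% both 100 µg libraries lay above both 50 µg libraries, against 26.8% of all genes. Acadl, the long-chain acyl-CoA dehydrogenase, was at 39.7 and 43.3 FPKM at 50 µg and at 88.2 and 101 FPKM at 100 µg, with vehicle at 41.9 and 48.7 (change 1.17, SE 0.18, adjusted p = 0.0529). Cpt1a, which commits fatty acids to mitochondrial uptake, was at 64.4 and 55.2 FPKM against 95.3 and 138 FPKM (change 0.93, adjusted p = 0.0949). Cpt2, its inner membrane partner, was at 51.3 and 48.1 FPKM against 84.2 and 88.8 FPKM (change 0.79, adjusted p = 0.0763). Heart style differences were 0.23 and 0.27 for Acadl, 0.28 and 0.00 for Cpt1a, and -0.07 and -0.16 for Cpt2.

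Fat markers were measured beside these values. Of 16 tested adipocyte markers none was called, and the median was 0.81, positive under each scaling. It was 0.09 without 100 µg replicate 2, 1.39 without 100 µg replicate 1 and 0.41 without 50 µg replicate 1. Their summed level was 410 and 476 FPKM in vehicle, 293 and 512 FPKM at 50 µg, and 380 and 1055 FPKM at 100 µg. Adipoq, the adipocyte hormone adiponectin, was at 15.4 and 36.6 FPKM at 50 µg and 21.8 and 81.8 FPKM at 100 µg. All 16 markers were higher in 100 µg replicate 2 than in replicate 1. Between 100 µg replicates 1 and 2 the log2 difference was -0.53 for Cpt1a, -0.20 for Acadl and -0.08 for Cpt2. The part of fat in the lipid gene results was not tested.

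The medulla gave no call among 21 tested markers, with a median of -0.15 that was negative under each scaling. Single libraries moved it, to -0.0049 without 100 µg replicate 1, -0.02 without 50 µg replicate 2, -0.27 without 50 µg replicate 1 and -0.36 without 100 µg replicate 2. Th, the first enzyme of catecholamine synthesis, was at 39.5 and 53.01 FPKM at 50 µg and at 30.9 and 34.8 FPKM at 100 µg, with vehicle at 31.7 and 31.9 (change -0.47, SE 0.19, adjusted p = 0.252). Pnmt, which makes adrenaline, was at 114 and 130 FPKM against 71.2 and 112 FPKM, with vehicle at 29.4 and 64.7 (change -0.44, SE 0.39, adjusted p = 0.587). The doses did not overlap in either gene, and neither passed the test.

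Pde10a, a cyclic nucleotide phosphodiesterase, was ordered by dose in these libraries. It stood at 0.809 and 3.45 FPKM in vehicle, 25.2 and 19.7 FPKM at 50 µg, and 68.8 and 42.8 FPKM at 100 µg. No group overlapped another, but the change between doses did not pass (1.25, SE 0.46, adjusted p = 0.238). In the heart Pde10a lay below 1 FPKM in every library of both naming styles. Its heart style differences, -0.26 and 0.01, therefore cannot show whether naming style moves it by as much as in the adrenal gland.

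Of 39 ribosomal protein genes, 37 had negative changes, with a median of -0.41. That median was -0.15 without 100 µg replicate 2 and -0.16 under quantile normalization, each with 10 positive changes, and all 39 genes were higher in 100 µg replicate 1 than in replicate 2. Of 21 replication-dependent histone genes, 20 had negative changes, with a median of -0.45. The linker histone gene H1f4 was at 35.5 and 37.8 FPKM at 50 µg and 15.7 and 19.0 FPKM at 100 µg (change -1.04, adjusted p = 0.0571). Nuclear genes of oxidative phosphorylation had a median of -0.10 over 36 genes, with -0.24 without 100 µg replicate 1, -0.15 without 50 µg replicate 2 and -0.05 without 100 µg replicate 2. All 8 tested MHC class II genes, which present antigen, had negative changes, with a median of -0.45. Without 50 µg replicate 2 the median was -0.17 with 2 positive changes, and without 50 µg replicate 1 it was -0.75. The medians of these 4 lists were negative under each scaling, and no member of them was called. Outside the lists of metallothionein, glucocorticoid, heat shock, antioxidant, erythroid and small RNA genes, no list held a called gene.

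**Figure D5:**
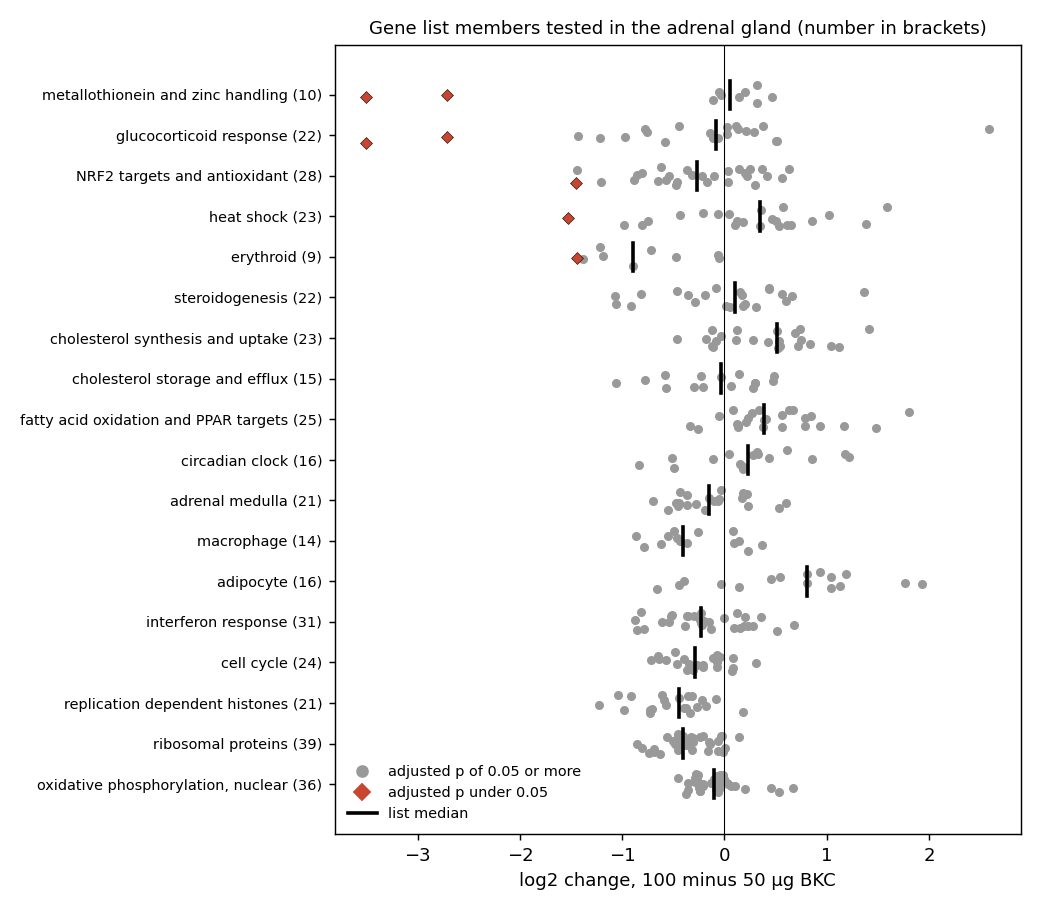
Each point is the adrenal log2 change (100 minus 50 µg) of one tested member of a gene list, red diamonds mark an adjusted p below 0.05, and black bars are list medians. Mt2A and Mt1 lie far from the rest of their lists, and the erythroid median is -0.89, while fatty acid oxidation and cholesterol synthesis have medians of 0.39 and 0.51 with no called member.

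Early response genes differed between libraries of one group. Of 21 tested immediate early genes, 19 were higher in 100 µg replicate 1 than in replicate 2, with a median difference of 1.67 on the log2 scale, and 12 differed at least 2-fold. In the vehicle pair 10 of the 21 differed at least 2-fold, with a median of -0.76, and in the 50 µg pair 1 did. Crem, a cAMP-responsive regulator, was at 206 and 141 FPKM at 50 µg and at 665 and 100 FPKM at 100 µg. Nfil3, a transcription factor of the bZIP class, was at 70.7 and 53.1 FPKM against 253 and 23.1 FPKM. Junb, an AP-1 subunit, was at 198 and 204 FPKM against 177 and 15.0 FPKM. In the first 2 genes replicate 1 lay above and replicate 2 below both 50 µg libraries. The number of genes that differed at least 2-fold was 735 between the 100 µg libraries and 331 between the 50 µg libraries, and it ran from 749 to 1287 in pairs across the doses.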

How the data were processed

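RNA-seq values of 6 adrenal libraries were analysed (2 vehicle, 2 at 50 µg, 2 at 100 µg), with 4 heart libraries for the naming-style difference. The deposited tables state no unit. The deposited values were read as FPKM, because they are not whole numbers and their sums differ. Per the submitters' processing notes, HISAT2 2.1.0, StringTie 2.1.3b and edgeR 3.40.2 were used, without roles. The genome build is not given in the sources used here, and read depth is unknown, so no counting intervals were computed. All 45777 symbols were found in RefSeq GRCr8, used for gene classes, host genes and promoters, and 85 rows share a repeated symbol.

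Genes that averaged 1 FPKM or more were tested with limma 3.58.1 (R 4.3.3) on log2(scaled FPKM + 1), after median-ratio scaling, with 1 mean per group over 6 libraries (3 residual degrees of freedom), trended and robust variance shrinkage, and Benjamini-Hochberg adjustment. The vehicle libraries informed the spread, the filter on mean level and the scaling, and were not part of the contrast between doses. For single genes, an exact permutation test of 2 against 2 libraries cannot go below a two-sided p of 0.333. On simulated data of 12578 genes, the fit called 8 of 68 genes changed by 1 on the log2 scale. It called 57 of 66 changed by 2 and 56 of 66 changed by 3, and 7 of its 128 calls were unchanged genes. Whether these rates hold for the measured libraries was not tested. In those, 735 genes differed at least 2-fold within the 100 µg pair and 331 within the 50 µg pair. Named genes were the largest rises and falls among called genes with a stable symbol, the called members of each gene list, and their host genes. A fixed set was named as well, with Mt1, Mt2A, Pde10a and steroidogenic, medullary, haemoglobin and structural RNA genes. List genes near the threshold were named besides. The comparison, members and lists were chosen with earlier results of these data known.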

Additional observations from a re-analysis of the deposited data

How the results depend on the processing

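All 37 called genes kept their direction under every alternative that gave them a value. The 37 calls (18 higher, 19 lower) became 372 (78 and 294) on FPKM as deposited, 97 (65 and 32) with protein-coding genes rescaled to equal sums, 23 (13 and 10) without robust shrinkage, and 5 (2 and 3) when only the 4 libraries compared were fitted. Without a filter on low values, limma called 0 (0 and 0) of 26394 genes, with 3308 at an unadjusted p below 0.05. Among protein-coding genes alone, 29 were called (9 and 20). Quantile normalization gave 33 calls, a pseudocount of 0.1 gave 30, a mean of at least 5 FPKM gave 33, and requiring a 2-fold change left 37. Leaving out each library in turn gave from 5 to 375 calls, from 2 to 284 higher and from 3 to 91 lower, with the largest counts without 100 µg replicate 2 and the lowest without a vehicle library, and the cause was not tested. With 1 library left at a dose, that library is assumed to vary like the others. A fit with the replicate number as a block gave 48 calls (23 and 25), of which 33 were among the 37. The labels do not link equal replicate numbers to a shared animal or batch. Deviations of same-numbered libraries correlated by 0.152 between the doses and by -0.147 and -0.103 with vehicle. Read depth is unknown, so limits of detection cannot be given.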
